A study of Mus musculus with 9 samples.

Results

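Focal adhesions are the sites where a cell grips its surroundings. Integrins bind the matrix outside the cell, talin and vinculin tie them to actin inside it, and kinases and adaptor proteins gather on the linkage and signal from it. The transcripts of 10 genes of this machinery were followed in D2A1-d cells. They encode the linkers talin 1 (Tln1), vinculin (Vcl) and the alpha-actinins Actn1 and Actn4, the LIM protein zyxin (Zyx), the adaptor paxillin (Pxn), the tyrosine kinases FAK (Ptk2) and Src, and the pseudokinase ILK (Ilk) with its actin-binding partner alpha-parvin (Parva). The genes were taken by symbol from 55335 gene identifiers, and all 10 were among the 14335 genes with enough reads to be tested.

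The cells, D2A1-d, are a line of murine mammary carcinoma studied in this series for metastatic dormancy. They had been transduced with shMed4 #4 or shMed4 #1, short hairpin RNAs against the Mediator subunit Med4, or with a non-targeting control hairpin (NTC), and were otherwise untreated. Each group had 3 libraries labelled as biological replicates, and the labels do not say whether these came from separate transductions or whether the cells were cloned. The p-values therefore reflect the spread over these libraries alone. The comparisons ask how transcripts change when either hairpin depletes Med4.

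Libraries held 7572114 to 8582235 reads assigned to genes. Med4 stood at 8.05, 7.45 and 6.13 CPM in the shMed4 #4 libraries, 4.97, 4.23 and 4.4 CPM in the shMed4 #1 libraries and 29.4, 27.9 and 25 CPM in the NTC libraries, where CPM is the read count scaled to library size. All 6 knockdown libraries were below all 3 NTC libraries. The epithelial markers Cdh1 and Epcam had 0 reads and 1 read in the 9 libraries together. The filament gene Vim, typical of mesenchymal cells, stood at 1101 ± 33 CPM with shMed4 #4, 1501 ± 84 CPM with shMed4 #1 and 1949.6 ± 25 CPM in NTC (SD, n = 3 each). The simple-epithelial keratin Krt8 ran the other way, at 53.9 ± 3.3, 19.2 ± 0.49 and 3.93 ± 0.41 CPM in the same order. Krt18 stood at 133 ± 9.9, 80.8 ± 8.8 and 20.4 ± 0.71 CPM. The 12 carcinoma and mammary markers summed to 1290.4 to 1368 CPM with shMed4 #4, 1534 to 1719 CPM with shMed4 #1 and 1984 to 2035 CPM in NTC, most of it Vim. The other 11 summed to 216 to 242 CPM with shMed4 #4, 126 to 148 CPM with shMed4 #1 and 63.6 to 72.0 CPM in NTC. The summed level of 10 leukocyte markers was 15.6 to 17.6 CPM with shMed4 #4, 15.0 to 15.7 CPM with shMed4 #1 and 17.0 to 23.1 CPM in NTC, and that of 8 endothelial markers was 2.07 to 3.23, 2.73 to 4.4 and 1.42 to 2.11 CPM in the same order. The summed level of 10 stromal fibroblast markers was 315 to 332 CPM with shMed4 #4, 290 to 312 CPM with shMed4 #1 and 298 to 337 CPM in NTC. Within that list Col1a1 stood at 51.5 ± 2.4, 46.4 ± 4.0 and 15.5 ± 1.1 CPM, Fbln1 at 83.1 ± 2.1, 56.2 ± 3.8 and 36.2 ± 3.6 CPM and Pdgfra at 60.0 ± 6.6, 77.1 ± 4.3 and 128 ± 4.4 CPM in the same order. The 5 adipocyte markers together were at most 0.387 CPM in any library. No reads fell on Cd3e, Emcn, Erg, Cldn5, Fap or Lep. The part of these shifts in the results below was not tested. In bulk RNA, fewer cells of a type and less RNA per cell cannot be told apart.

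Sequences upstream of RefSeq gene starts were available for 7 of the 10 genes (GRCm38.p6), with a pair of starts for Ilk and none listed for Pxn, Ptk2 and Parva. Each was searched on both strands, over the 250 bases before the RefSeq start, for the CArG box bound by SRF, the TEAD motif GGAATG, the AP-1 motif TGANTCA and the GC box GGGCGG. The sequences of 4 genes are shown because they belong to the genes on which the comparisons turn: Vcl, the 1 gene of the 7 with a CArG box, Zyx, which changed most, and Actn4 and Actn1, the paralogs of which Actn4 rose. They are written 5′ to 3′ on the strand of the gene, and capitals mark a CArG box, a TEAD motif or an AP-1 motif.
Vcl (chr14:20929148-20929397, plus strand): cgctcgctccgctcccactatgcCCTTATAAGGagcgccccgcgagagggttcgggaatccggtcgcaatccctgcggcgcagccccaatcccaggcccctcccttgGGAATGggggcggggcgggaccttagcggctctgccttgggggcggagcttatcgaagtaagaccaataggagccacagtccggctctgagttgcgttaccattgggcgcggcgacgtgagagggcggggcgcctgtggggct
Zyx (chr6:42349578-42349827, plus strand): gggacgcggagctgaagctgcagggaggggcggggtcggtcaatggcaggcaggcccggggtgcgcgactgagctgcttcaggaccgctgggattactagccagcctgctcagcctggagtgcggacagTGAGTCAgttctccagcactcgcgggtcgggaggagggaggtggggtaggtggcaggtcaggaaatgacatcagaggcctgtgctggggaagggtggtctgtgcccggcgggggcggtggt
Actn4 (chr7:28962333-28962582, minus strand): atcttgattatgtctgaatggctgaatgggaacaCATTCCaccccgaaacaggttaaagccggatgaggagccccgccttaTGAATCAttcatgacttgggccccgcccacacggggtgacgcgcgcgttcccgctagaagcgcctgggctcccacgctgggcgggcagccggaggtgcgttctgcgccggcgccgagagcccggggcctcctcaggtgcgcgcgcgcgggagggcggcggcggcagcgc
Actn1 (chr12:80260364-80260613, minus strand): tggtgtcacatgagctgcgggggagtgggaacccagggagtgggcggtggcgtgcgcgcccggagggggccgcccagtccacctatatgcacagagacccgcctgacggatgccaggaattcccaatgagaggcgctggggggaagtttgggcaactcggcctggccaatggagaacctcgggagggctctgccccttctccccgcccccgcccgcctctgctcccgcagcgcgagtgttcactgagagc
The capitals in Vcl are a CArG box, which began 227 bases before the start, and a TEAD motif 143 bases before it. A CArG box was present in 1.47% of all 32851 promoters of this length. The Zyx sequence held 1 AP-1 motif, 121 bases before the RefSeq start. The GENCODE M21 start of Zyx, at 42349630, lies inside the printed stretch and ahead of that motif. Most of the Zyx stretch, with the motif, is therefore within the gene as GENCODE M21 places it. The Actn4 sequence held a TEAD motif at 216 bases and an AP-1 motif at 169 bases. Of all promoters, 12.6% held the TEAD motif and 6.75% the AP-1 motif. The Actn1 sequence held none of the 3 and 4 GC boxes, against 3 GC boxes for Actn4, 4 for Vcl and 2 for Zyx. The GC box was in 32.7% of all promoters. Different motifs did not overlap in these 4 sequences, and a pair of the Vcl GC boxes shared 1 base. These matches describe letters only, and no binding was measured.

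All 10 genes were expressed in every library, at levels that differed widely between genes. Levels of different genes were compared per length of exon, in TPM computed from the counts. TPM is scaled to its own total, unlike CPM and the tested fold changes, so its differences between groups need not match those tested. For Actn1 the TPM range was 358 to 363 with shMed4 #4 and 391 to 417 in NTC, while its tested change did not pass. Actn1 was highest in every group, at 361 ± 2.8 TPM with shMed4 #4, 368 ± 9.9 TPM with shMed4 #1 and 402 ± 13 TPM in NTC (SD, n = 3 each). That NTC level lay above those of 98.0% of the genes tested. At the other end, Pxn stood at 35.3 ± 1.6 TPM with shMed4 #4, 33.3 ± 2.8 TPM with shMed4 #1 and 27.1 ± 2.4 TPM in NTC, and Ptk2 at 36.8 ± 0.61, 35.7 ± 0.58 and 30.5 ± 2.2 TPM. With all exons as the length, the ranges of Pxn and Ptk2 overlapped with either hairpin. That overlap depended on the length used. With the longest transcript as the length, Ptk2 and Pxn stood at 73.8 and 61.1 TPM with shMed4 #4. With shMed4 #1 they stood at 71.5 and 57.7 TPM.

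In NTC cells the order was Actn1, Ilk, Actn4, Zyx, Tln1, Vcl, Src, Parva, Ptk2 and Pxn. Ranges of neighbours in that order overlapped only for Zyx (137 to 156 TPM) and Tln1 (139 to 140.4 TPM). In shMed4 #4 cells Zyx had moved to the second place, at 238 ± 4.9 TPM, where its range overlapped that of Actn4 at 230.5 ± 4.3 TPM. In shMed4 #1 cells Zyx kept its place below Ilk, at 170.1 ± 4.9 TPM against 207 ± 6.8 TPM for Ilk. The lower places, from Tln1 down to Pxn, were in the same order in all 3 groups. With the longest transcript in place of all exons as the length, Vcl passed Tln1 in every group, and neighbours changed places for Zyx and Ilk in shMed4 #1 cells, for Actn4 and Ilk in NTC cells, and for Parva and Src in both.

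**Figure D1:**
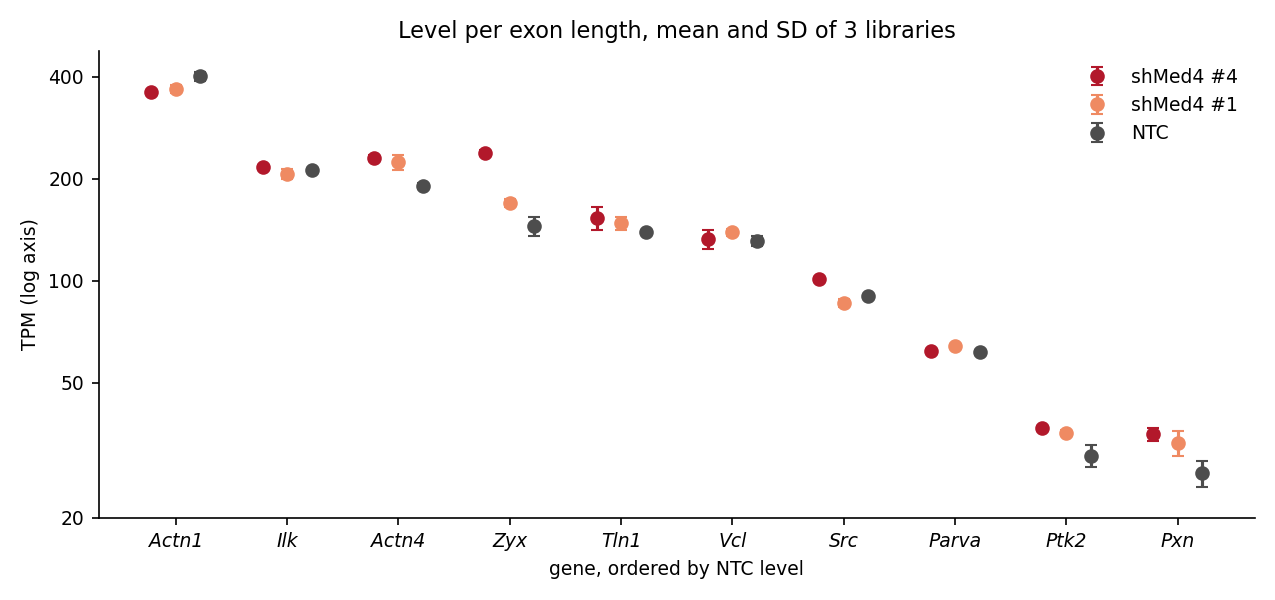
Level per exon length of the 10 genes in TPM on a log axis, with points for the mean and bars for the SD of 3 libraries in each of shMed4 #4, shMed4 #1 and NTC. Actn1 is highest at 361 to 402 TPM, Zyx stands at 238, 170.1 and 145 TPM, and Ptk2 and Pxn are lowest.

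With both hairpins averaged, 8 of the 10 genes rose against NTC, 0 fell and 2 (Ilk and Actn1) did not pass the test. Among all genes tested 26.8% were called higher and 26.5% lower, by the edgeR quasi-likelihood test with an adjusted p under 0.05. The rises were small, and none of the 10 genes changed by 2-fold with either hairpin. Vcl, Src and Parva passed for the average at log2 fold changes of 0.12, 0.13 and 0.11. Of all genes tested, 26.3% changed less than Parva in either direction, and 28.9% less than Src. The NTC levels of the 10 genes in TPM lay above those of 56.6% (Pxn) to 98.0% (Actn1) of the genes tested. The shares of all genes were not matched for level, and the part of level in these counts was not tested. The median log2 fold change of the 10 was 0.25 with shMed4 #4 and 0.13 with shMed4 #1, against -0.013 and -0.008 for all genes tested. With shMed4 #4, 7 genes rose and 0 fell, where 27.8% of all genes were called higher and 27.3% lower. With shMed4 #1, 6 rose and 0 fell, where 21.8% were called higher and 19.8% lower. Zyx, Pxn, Ptk2, Actn4 and Tln1 rose with each hairpin, as did 17.4% of all genes. None of the 10 fell with each hairpin, as 15.8% of all genes did, and Parva and Actn1 passed with neither, as did 37.4%. Libraries lay wholly above those of NTC for 8 genes with shMed4 #4 (29.8% of all genes), 7 with shMed4 #1 (25.2%) and 6 with all knockdown libraries together (19.5%). They lay wholly below for Actn1 alone, whose nearest libraries both round to 677 CPM, as for 29.8%, 23.9% and 18.3% of all genes. Between the hairpins, shMed4 #4 lay wholly above shMed4 #1 for 5 genes (20% of all genes) and wholly below for 0 (20.2%). Both comparisons use the same NTC libraries, so they are not independent of each other. The count for the average depended on the scaling and the threshold. It was 5 higher and 1 lower with upper-quartile factors. It was 5 higher and 0 lower at an adjusted p under 0.01, without NTC replicate 2, or with both hairpins pooled as 1 group. Among all genes, 3848 were called higher and 3792 lower in the main fit, and 3355 and 4353 with upper-quartile factors. These counts were 3116 and 2953 at an adjusted p under 0.01, and 2987 and 2734 with the hairpins pooled.

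**Figure D2:**
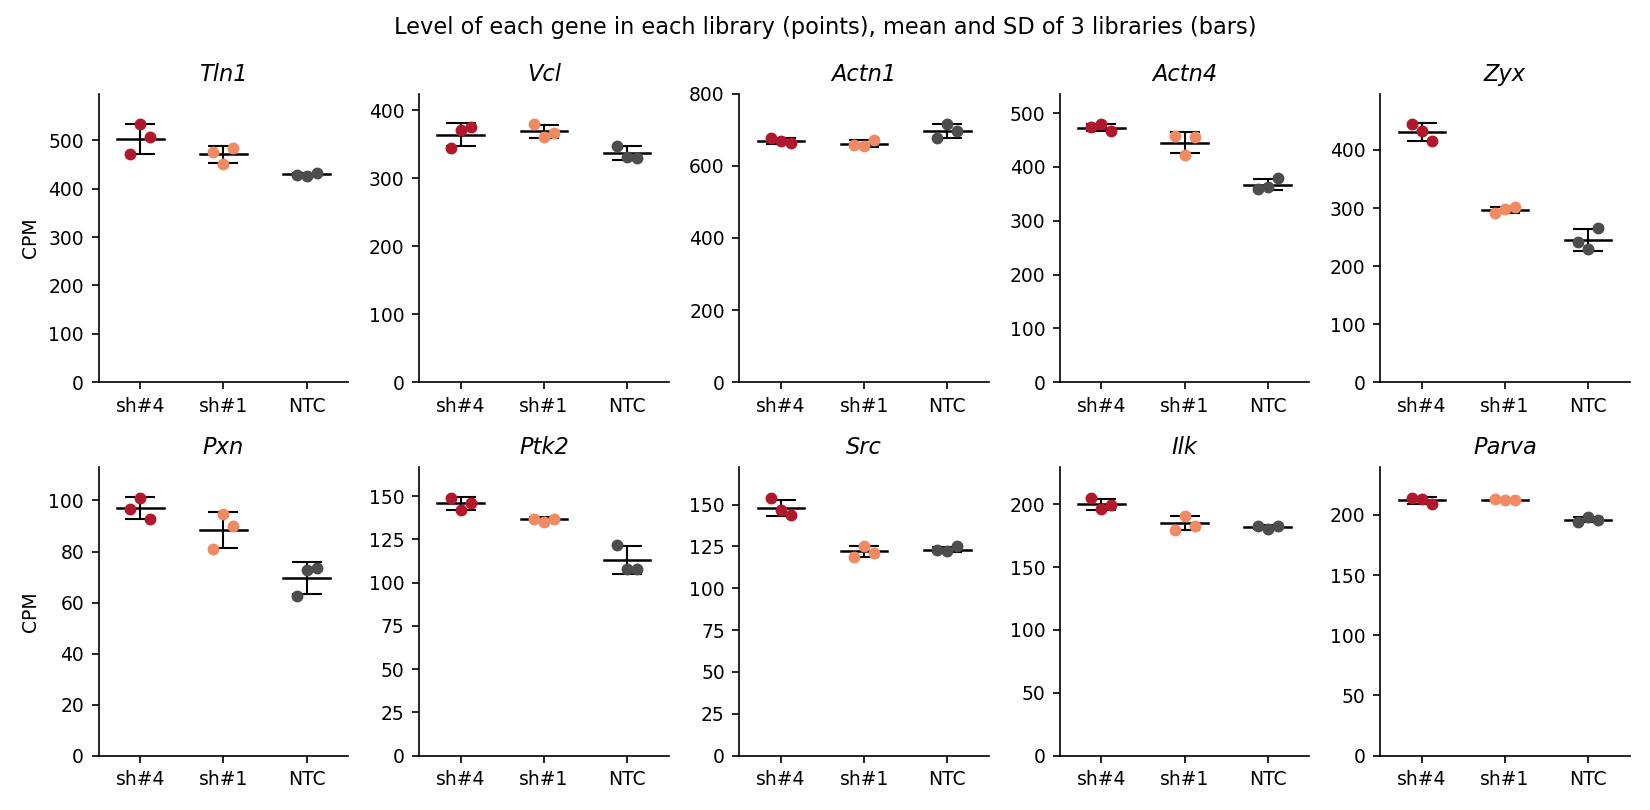
CPM of each gene in every library, with 1 panel a gene, points for the 9 libraries and bars for the mean and SD of 3 libraries of shMed4 #4 (sh#4), shMed4 #1 (sh#1) and NTC. The Zyx points of shMed4 #4 lie at 415 to 444 CPM, above those of shMed4 #1 and NTC, while the Actn1 points of all groups lie between 654 and 715 CPM.

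Zyxin showed the largest averaged change of the 10 genes. It gathers on actin fibres under tension and brings the actin-assembling VASP proteins to focal adhesions. Zyx (ENSMUSG00000029860.16, chromosome 6, 42349630 to 42360213 in GRCm38, protein-coding) stood at 444, 433 and 415 CPM in the shMed4 #4 libraries, 292, 298 and 302 CPM in the shMed4 #1 libraries and 242, 229 and 265 CPM in the NTC libraries. The 3 groups did not overlap, and shMed4 #1 lay between the others. On the log2 scale Zyx was higher by 0.81 with shMed4 #4 (SE 0.05, edgeR adjusted p = 6.37e-16), a rise of 75.5%, and 0.28 with shMed4 #1 (SE 0.05, edgeR adjusted p = 5.92e-05), a rise of 21.1%. The direct comparison of shMed4 #4 with shMed4 #1 gave 0.53 (SE 0.05, edgeR adjusted p = 2.4e-10). The median of the 50 nearest tested genes on the chromosome was 0.15 with shMed4 #4 and 0.10 with shMed4 #1. Epha1, on the other strand, covers 4.38% of the Zyx exons and had 333 reads over all libraries, against 23810 for Zyx.

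Paxillin, the scaffold that brings FAK and other signalling proteins to the integrin tail, rose with both hairpins. Pxn (ENSMUSG00000029528.19, chromosome 5, 115506676 to 115555987) stood at 96.7, 101 and 92.7 CPM with shMed4 #4, 80.9, 94.7 and 90.0 CPM with shMed4 #1 and 62.6, 72.8 and 73.4 CPM in NTC. All knockdown libraries were above all NTC libraries, and the hairpin groups overlapped. On the log2 scale Pxn was higher by 0.48 with shMed4 #4 (SE 0.07, edgeR adjusted p = 1.76e-07) and 0.35 with shMed4 #1 (SE 0.07, edgeR adjusted p = 7.24e-05). The 95% interval of the difference between the hairpins ran from 0.00 to 0.26 (edgeR adjusted p = 0.14). The neighbours of Pxn were higher too, with medians of 0.18 with shMed4 #4 and 0.20 with shMed4 #1. The part of this local shift in the rise of Pxn was not tested.

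Of the alpha-actinins, which crosslink actin filaments, Actn4 rose and Actn1 did not pass the test. Actn4 (ENSMUSG00000054808.15, chromosome 7, 28893248 to 28962340, minus strand) stood at 474, 479 and 466 CPM with shMed4 #4, 457, 422 and 456 CPM with shMed4 #1 and 359, 363 and 379 CPM in NTC. It rose by 0.37 on the log2 scale with shMed4 #4 (SE 0.05, edgeR adjusted p = 6.1e-08) and 0.28 with shMed4 #1 (SE 0.05, edgeR adjusted p = 1.76e-05), and every knockdown library was above every NTC library. Actn1 (ENSMUSG00000015143.15, chromosome 12, 80167547 to 80260371, minus strand) stood at 677, 669 and 663 CPM with shMed4 #4, 657, 654 and 672 CPM with shMed4 #1 and 677, 715 and 697 CPM in NTC. It did not pass the test. Its log2 fold change was -0.06 with shMed4 #4 (95% interval -0.15 to 0.04) and -0.08 with shMed4 #1 (-0.17 to 0.02). With upper-quartile factors the average for Actn1 was -0.10 (edgeR adjusted p = 0.0266), which passed as a fall. Opposite-strand genes cover 5.16% of the Actn4 exons (Capn12) and 6.56% of the Actn1 exons (Gm47766).

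The proportions of the alpha-actinins differed between the groups. Actn1 made up 61.0 ± 0.27% of alpha-actinin TPM with shMed4 #4, 62.1 ± 0.94% with shMed4 #1 and 67.7 ± 0.79% in NTC (SD, n = 3 each). The highest knockdown library was at 63.1% and the lowest NTC library at 67.0%. The rest was almost all Actn4, at 38.9 ± 0.29%, 37.7 ± 0.87% and 32.2 ± 0.73% in the same order. The muscle forms were near 0, with 3 reads of Actn2 and 53 of Actn3 over all libraries. Shares within a family carry no test here, and neither they nor the test of each gene compares the paralogs with each other.

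Talin 1 and vinculin changed little. Talin binds the integrin tail and, when stretched, recruits vinculin, which binds actin. Tln1 (ENSMUSG00000028465.16, chromosome 4, 43531519 to 43562691, minus strand) stood at 471, 533 and 506 CPM with shMed4 #4, 477, 452 and 485 CPM with shMed4 #1 and 429, 427 and 432 CPM in NTC. All knockdown libraries were above all NTC libraries. On the log2 scale Tln1 was higher by 0.23 with shMed4 #4 (SE 0.05, edgeR adjusted p = 0.000212) and 0.13 with shMed4 #1 (SE 0.05, edgeR adjusted p = 0.0306). The call with shMed4 #1 was lost without any 1 of 5 libraries, with edgeR adjusted p of 0.0532 to 0.0862 without NTC replicate 1, 2 or 3 and 0.0515 and 0.122 without shMed4 #1 replicate 1 and 3, and it was 0.0985 with upper-quartile factors. Between the hairpins Tln1 did not pass (0.09, edgeR adjusted p = 0.166), but it passed without shMed4 #4 replicate 1 (0.15, edgeR adjusted p = 0.035). Its paralog Tln2 held 5.20 ± 0.069% of talin TPM with shMed4 #4, 5.28 ± 0.23% with shMed4 #1 and 5.63 ± 0.29% in NTC.

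Vcl (ENSMUSG00000021823.10, chromosome 14, 20929398 to 21033676) stood at 344, 371 and 375 CPM with shMed4 #4, 379, 359.8 and 367 CPM with shMed4 #1 and 348, 331 and 330.3 CPM in NTC. The shMed4 #4 and NTC libraries overlapped. On the log2 scale Vcl stood 0.11 above NTC with shMed4 #4 and did not pass (SE 0.05, edgeR adjusted p = 0.0585). It passed at 0.13 with shMed4 #1 (SE 0.05, edgeR adjusted p = 0.0333). The interval of the difference between the hairpins was -0.12 to 0.08. The shMed4 #1 call was lost without NTC replicate 2 or 3 or shMed4 #1 replicate 1 or 3 (edgeR adjusted p = 0.112, 0.1, 0.0859 and 0.0666) and with upper-quartile factors (0.106). With shMed4 #4, Vcl passed without NTC replicate 1, shMed4 #1 replicate 1 or shMed4 #4 replicate 1 (edgeR adjusted p = 0.0404, 0.0309 and 0.0125), with no low-count filter (0.042) and with the compared libraries alone (0.0441). The averaged call of Vcl (0.12, edgeR adjusted p = 0.0186) was lost without NTC replicate 2 (0.086) or 3 (0.077), with upper-quartile factors (0.106) and with both hairpins pooled (0.0661). The opposite-strand gene Ap3m1 covers 25.5% of the Vcl exons and stood at 0.07 with shMed4 #4 (edgeR adjusted p = 0.267) and 0.13 with shMed4 #1 (0.0374). Whether counting used strand is not stated, so how reads in the shared stretch were assigned is not known.

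Of the kinases, FAK rose with both hairpins and Src with shMed4 #4. FAK is activated when integrins cluster and exposes a site that Src binds. Ptk2 (ENSMUSG00000022607.18, chromosome 15, 73205102 to 73423280, minus strand) stood at 149, 142 and 146 CPM with shMed4 #4, 137, 135 and 137 CPM with shMed4 #1 and 122, 108 and 108 CPM in NTC. Its lowest knockdown library was above its highest NTC library. Ptk2 was higher by a log2 fold change of 0.37 with shMed4 #4 (SE 0.06, edgeR adjusted p = 7.49e-07) and 0.28 with shMed4 #1 (SE 0.06, edgeR adjusted p = 0.000141), with neighbours at 0.13 and 0.12. Its relative Pyk2 (Ptk2b) stood at 0.10 with shMed4 #4 (edgeR adjusted p = 0.283) and 0.19 with shMed4 #1 (0.0436).

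Src (ENSMUSG00000027646.15, chromosome 2, 157418444 to 157471862) stood at 154, 147 and 144 CPM with shMed4 #4, 119, 125 and 121 CPM with shMed4 #1 and 123, 122 and 125 CPM in NTC. The shMed4 #4 libraries were above all others, and those of shMed4 #1 and NTC overlapped. Src had a log2 fold change of 0.27 with shMed4 #4 (SE 0.05, edgeR adjusted p = 6.01e-05) and -0.02 with shMed4 #1 (95% interval -0.13 to 0.09). The hairpins differed by 0.28 in the direct comparison (SE 0.05, edgeR adjusted p = 8.49e-05). Src and Zyx were the 2 of the 10 genes for which the hairpins differed, where 28% of all genes did (14.2% higher and 13.9% lower). The averaged call of Src (0.13, edgeR adjusted p = 0.0236) was lost without NTC replicate 1 (0.0626) or NTC replicate 2 (0.0865), with upper-quartile factors (0.113) and with both hairpins pooled as 1 group (0.22).

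The ILK and parvin pair changed little. ILK, PINCH and parvin form a complex that joins the beta integrin tail to actin. Ilk (ENSMUSG00000030890.16, chromosome 7, 105736592 to 105742925) stood at 205, 196 and 199 CPM with shMed4 #4, 179.8, 191 and 183 CPM with shMed4 #1 and 183, 180.2 and 183 CPM in NTC. Ilk had a log2 fold change of 0.14 with shMed4 #4 (SE 0.05, edgeR adjusted p = 0.0214) and 0.02 with shMed4 #1 (95% interval -0.08 to 0.12). The shMed4 #4 call was lost without NTC replicate 2 (edgeR adjusted p = 0.0656), without shMed4 #4 replicate 1 (0.0556) and with upper-quartile factors (0.123). Taf10, on the other strand, covers 76.7% of the annotated Ilk exons and stood at 0.12 with shMed4 #4 (edgeR adjusted p = 0.0466) and -0.01 with shMed4 #1 (0.852). Rrp8, also on that strand, covers 12.9% and changed by 0.61 and 0.38. With the strand setting not stated, how reads in the shared stretches were assigned is not known, and the value of Ilk is uncertain to that extent.

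Parva (ENSMUSG00000030770.15, chromosome 7, 112427505 to 112591692) stood at 214, 213 and 209 CPM with shMed4 #4, 213, 212 and 212 CPM with shMed4 #1 and 194, 198 and 196 CPM in NTC. In CPM its knockdown libraries were all above the NTC libraries, by 8.14% on average with shMed4 #4 and 8.26% with shMed4 #1. In TPM the shMed4 #4 range of 61.7 to 63.1 overlapped the NTC range of 61.0 to 62.8. The shMed4 #1 range of 64.0 to 65.2 TPM did not. The median log2 fold change of its 50 nearest tested genes was 0.14 with shMed4 #4 and 0.07 with shMed4 #1. The part of this local shift in the values of Parva was not tested. Parva had a log2 fold change of 0.11 with each hairpin (SE 0.05), with edgeR adjusted p of 0.0502 for shMed4 #4 and 0.0595 for shMed4 #1. The average passed (0.11, SE 0.04, edgeR adjusted p = 0.0244), but not without NTC replicate 1, 2 or 3 (0.0799, 0.0543 and 0.0544), with upper-quartile factors (0.133) or with both hairpins pooled (0.0533). The shMed4 #4 value passed without shMed4 #1 replicate 1 (edgeR adjusted p = 0.0304), with DESeq2 size factors (0.044), with limma-voom (0.0461), with a filter of 1 CPM (0.0472) and with the compared libraries alone (0.0413).

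**Figure D3:**
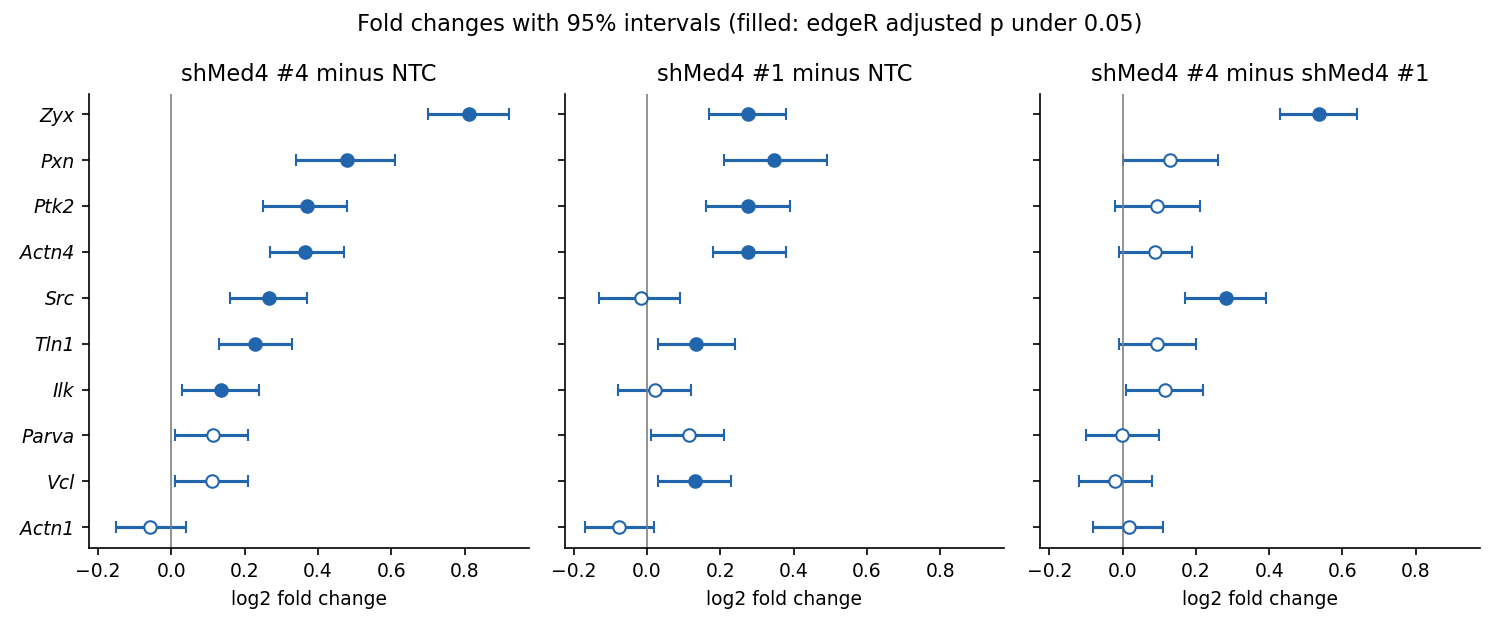
Log2 fold changes of the 10 genes with 95% intervals for shMed4 #4 against NTC, shMed4 #1 against NTC and shMed4 #4 against shMed4 #1, filled where the edgeR adjusted p is under 0.05. Zyx lies at 0.81, 0.28 and 0.53 in the 3 panels, Src at 0.27, -0.02 and 0.28, and the Actn1 interval includes 0 in each.

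Relatives of several of the 10 genes, named after their values were seen, also shifted. Among the 7 LIM proteins of the zyxin and ajuba family, Zyx held 41.7 ± 0.47% of TPM with shMed4 #4, 33.9 ± 0.73% with shMed4 #1 and 28 ± 1.6% in NTC. Ajuba, which also acts at cell junctions and in Hippo signalling, held 15.8 ± 0.36%, 21.4 ± 0.91% and 29.7 ± 0.67% in the same order. In NTC cells the Zyx range of 26.6 to 29.7% and the Ajuba range of 28.9 to 30.2% overlapped, while in both knockdowns Zyx was higher in every library. Ajuba fell by a log2 fold change of 0.67 with shMed4 #4 (edgeR adjusted p = 1.2e-12) and 0.47 with shMed4 #1 (1.3e-08). Limd1 rose by 0.69 and 0.32, and Trip6, at -0.04 and -0.06, did not pass (edgeR adjusted p = 0.684 and 0.56).

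The PINCH proteins, partners of ILK, moved in opposite directions. Lims1 (PINCH1) rose with both hairpins, with log2 fold changes of 0.48 with shMed4 #4 and 0.36 with shMed4 #1 (edgeR adjusted p = 2.42e-09 and 1.89e-06). Lims2 (PINCH2) fell, with -1.21 and -0.69 (edgeR adjusted p = 6.63e-11 and 4.56e-06). Lims2 held 9.06 ± 1.2% of PINCH TPM with shMed4 #4, 13.5 ± 1.4% with shMed4 #1 and 24.4 ± 1.3% in NTC (SD, n = 3 each). The 3 ranges did not overlap. Beta-parvin (Parvb) fell with shMed4 #1 by 0.30 (edgeR adjusted p = 0.00243) and stood at -0.01 with shMed4 #4 (edgeR adjusted p = 0.925), a difference of 0.29 between the hairpins (edgeR adjusted p = 0.00532).

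Src itself held 44.9 ± 1.4% of Src-family TPM with shMed4 #4, 45.3 ± 0.86% with shMed4 #1 and 45.8 ± 1.2% in NTC, with overlapping ranges. Several of its relatives changed. Lyn, best known from blood cells, held 8.3 ± 0.65% with shMed4 #4, 7.31 ± 0.82% with shMed4 #1 and 3.60 ± 0.16% in NTC, and rose by 1.5 and 1.02 with the hairpins (edgeR adjusted p = 2.51e-13 and 2.59e-08). Yes1 held 10.8 ± 0.87%, 11.7 ± 0.43% and 16.0 ± 0.49% in that order, and fell by 0.28 and 0.45 (edgeR adjusted p = 0.000542 and 8.76e-07). Fyn rose with shMed4 #4 (0.35, edgeR adjusted p = 4.1e-06) and stood at 0.01 with shMed4 #1 (edgeR adjusted p = 0.882), with a difference of 0.33 (2.66e-05). Of the 10 leukocyte markers, Csf1r had 769 reads over all libraries, Cd68 274, Lyz2 151, Fcer1g 41, Ptprc 12 and the others fewer, and their part in the level of Lyn was not tested.

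**Figure D4:**
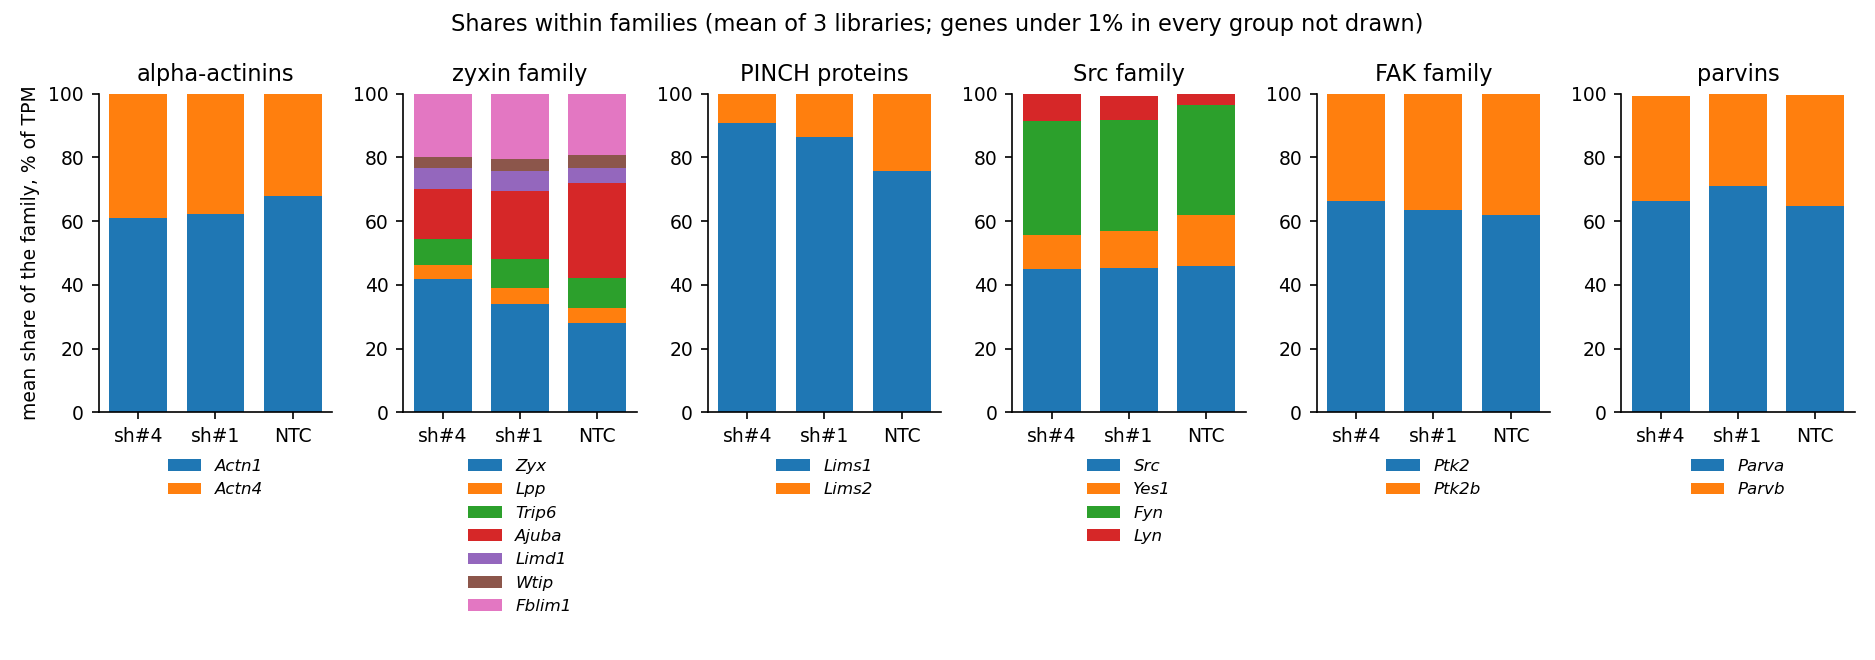
Mean share of each gene in the summed TPM of its family for shMed4 #4 (sh#4), shMed4 #1 (sh#1) and NTC, as stacked bars in 6 families, leaving out genes under 1% in every group. The Actn1 share is 61.0, 62.1 and 67.7%, the Zyx share 41.7, 33.9 and 28% and the Lims2 share 9.06, 13.5 and 24.4% from left to right.

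Around the 10 genes, 140 further adhesion genes in 8 lists were counted, of which 115 were tested. The lists were chosen with earlier results of these data known, so their shares are not independent of those results. With both hairpins averaged, 56 rose and 24 fell, which is 48.7% and 20.9%, against 26.8% and 26.5% of all genes tested. Their median log2 fold change was 0.14. With shMed4 #4, 56 rose and 27 fell (48.7% and 23.5%), against 27.8% and 27.3% of all genes. With shMed4 #1, 42 rose and 21 fell (36.5% and 18.3%), against 21.8% and 19.8% of all genes. Adaptors of paxillin, p130Cas and CRK had 14 up and 2 down of 24 for the average (median 0.18), and the LIM and VASP proteins had 12 up and 2 down of 20 (median 0.22). Actin crosslinkers and tensins had 12 up and 4 down of 21 (median 0.14).

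Several adaptors rose with both hairpins. The SH3 adaptor Sorbs2 stood at 163 ± 3.2 CPM with shMed4 #4, 147 ± 9.7 CPM with shMed4 #1 and 91.4 ± 5.3 CPM in NTC (SD, n = 3 each). Efs, a relative of p130Cas, stood at 14.2 ± 2.7, 6.85 ± 0.40 and 1.09 ± 0.21 CPM in the same order. Dock5, an activator of Rac, fell by 0.33 on the log2 scale for the average (edgeR adjusted p = 1.65e-06).

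Among LIM proteins, Tes (testin), which binds zyxin, rose with both hairpins. It stood at 350.1 ± 17 CPM with shMed4 #4, 259.5 ± 6.3 CPM with shMed4 #1 and 168 ± 5.6 CPM in NTC, with an averaged log2 fold change of 0.85 (edgeR adjusted p = 4.54e-18). Pdlim7 rose by 0.63 and Pdlim5 fell by 0.45. Of the crosslinkers, Synpo2 rose by 2.34, Nexn by 1.41 and Svil by 0.67, while Tns3 fell by 0.46 and Tns4 by 0.66. Levels in NTC were low for Synpo2 (3.33 CPM), Nexn (8.44 CPM) and Tns4 (11.4 CPM), against 51.0 CPM for Svil and 233 CPM for Tns3. Filamin A (Flna) fell slightly, at 2314 ± 142 CPM with shMed4 #4, 2241 ± 127 CPM with shMed4 #1 and 2529 ± 61 CPM in NTC (averaged log2 fold change -0.15, edgeR adjusted p = 0.00414).

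Of 18 integrin chains tested, 7 rose and 7 fell for the average (38.9% each way, median -0.11), against 26.8% and 26.5% of all genes. With shMed4 #4 the counts were 7 and 7 (38.9% each way, against 27.8% and 27.3% of all genes). With shMed4 #1 they were 4 and 6 (22.2% and 33.3%, against 21.8% and 19.8% of all genes). Itgb3 rose by an averaged 2.81, Itgb1 by 0.80 and Itga6 by 1.01, while Itga1 fell by 0.62, Itgb8 by 0.69 and Itgav by 0.31. In NTC, Itgb3 stood at 6.9 CPM and Itgb1 at 985 CPM. Of 11 tested genes for integrin activators and the layer around talin and kindlin, 3 rose and 3 fell. These shares (27.3% each way, median 0.09) were near those of all genes. Kindlin-2 (Fermt2), which works with talin on the integrin tail, rose by 0.36, and the liprins Ppfibp1 and Ppfia1 by 0.40 and 0.24. Kank3 fell by 1.62 and the talin recruiter Apbb1ip (RIAM) by 0.71.

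Of 6 tested partners of ILK, PINCH and parvin, 2 rose and 2 fell for the average (33.3% each way, median -0.09), against 26.8% and 26.5% of all genes, with Rsu1, which binds PINCH1, down by 0.47. The counts were 2 and 2 with shMed4 #4, and 1 and 3 with shMed4 #1. Of 12 further kinases and regulators of FAK and Src, 5 rose and 4 fell for the average (41.7% and 33.3%, median 0.10). The counts were 4 and 4 with shMed4 #4 (33.3% each way), and 5 and 1 with shMed4 #1 (41.7% and 8.33%). Csk, the kinase that restrains Src, rose by 0.40 (edgeR adjusted p = 6.1e-08) and the phosphatase Ptpn11 by 0.15. Of 3 tested genes for the factors SRF and MRTF, which drive many cytoskeletal genes, 1 rose and 0 fell for the average, too few for a share. That gene was Mrtfa, at 135 ± 4.6 CPM with shMed4 #4, 106 ± 2.4 CPM with shMed4 #1 and 93.1 ± 12 CPM in NTC.

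**Figure D5:**
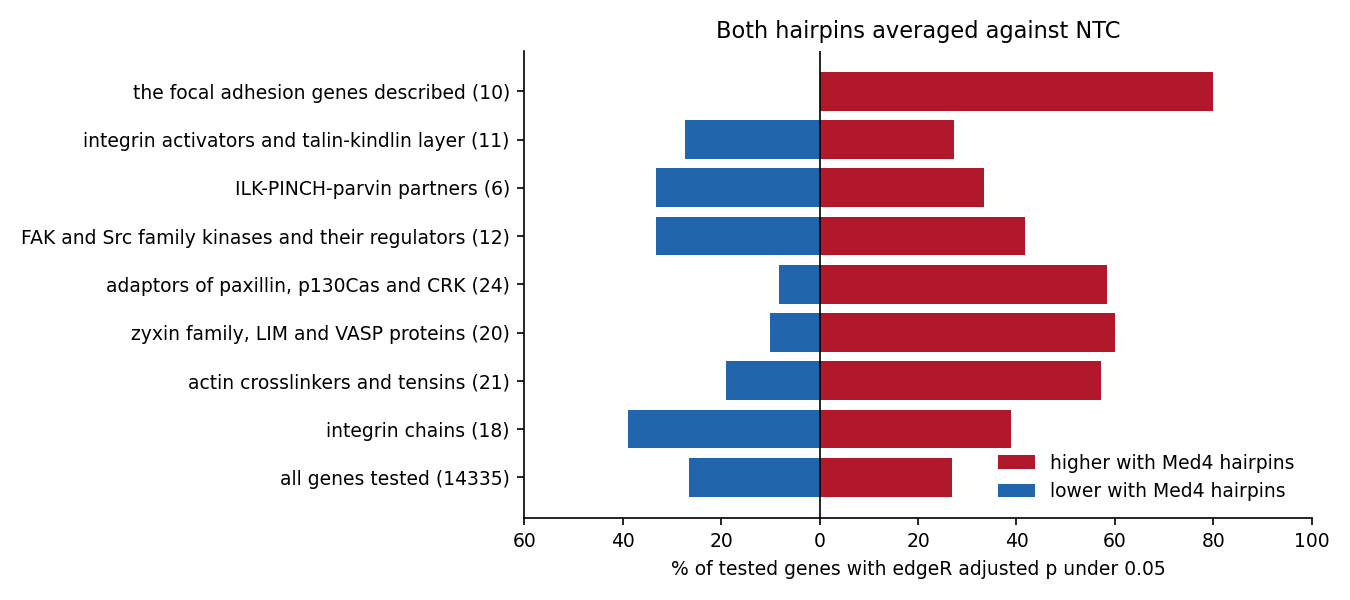
Percent of tested genes called higher (right) or lower (left) with both hairpins averaged against NTC, for the 10 genes, 7 lists of other adhesion genes and all genes tested, with the number tested in parentheses. The list of SRF and MRTF factors, with 3 tested genes, is not drawn. The adaptors (58.3% and 8.33%) and the LIM and VASP proteins (60.0% and 10.0%) lean to the right, integrin chains (38.9% each way) do not, and all genes stand at 26.8% and 26.5%.

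The genes whose profiles were most like each of the 5 shared rises were sought among 10101 others with at least 5 CPM. Likeness was the root mean square difference over the 9 libraries of log2 CPM centred on the NTC mean. Nearest to Zyx were Rps6ka2 (0.0503) and Rapgef3 (0.0645), to Pxn Ano10 (0.0528) and Yaf2 (0.0550), and to Tln1 Nup155 (0.0314) and Wasf2 (0.0335). Nearest to Ptk2 were Myef2 (0.0276) and Zdhhc6 (0.0296), and to Actn4 Atxn2l (0.0282) and Myadm (0.0347). Among the 10 genes themselves the closest pair was Vcl and Parva at 0.0510, followed by Ilk and Parva at 0.0627 and Ptk2 and Actn4 at 0.0710. Parva ranked 35 among the profiles nearest to Vcl, and Vcl ranked 58 among those nearest to Parva. Parva ranked 176 from Ilk and Ilk 167 from Parva, while Actn4 ranked 108 from Ptk2 and Ptk2 119 from Actn4. By this measure genes that changed little lie close to each other, and many other genes were nearer than these pairs.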

How the data were processed

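Per the labels' protocols, D2A1-d RNA was run on a BGISEQ-500. The submitters' processing notes name STAR, HTSeq and the mm10 (GRCm38) build. Their versions, the strand setting and the annotation release are not stated there. The deposited values are raw read counts per gene, 1 file per library. The 5 summary lines of each file were left out, with reads of no feature at 49.52 to 51.63%, multiple alignments at 10.5 to 11.63% and ambiguous reads at 0.86 to 0.95%. Symbols were matched for 55154 of 55335 identifiers. Coordinates and exon lengths are from GENCODE M21, whose identifier versions differed for Ptk2 and Pxn.

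Libraries were grouped by the labels. A single edgeR 4.0.16 quasi-likelihood model (R 4.3.3) was fitted to all 9 libraries after filterByExpr (minimum count 10) and TMM scaling (factors 0.969 to 1.03), with Benjamini-Hochberg adjustment over 14335 genes and a threshold of 0.05. Standard errors are the log2 fold change over the square root of F, and intervals are 95%. On simulated data (13959 genes), 1.5-fold changes were recovered for 68.8% of changed genes for shMed4 #4 against NTC and 67.7% for shMed4 #1 against NTC. In that simulation 96 genes changed by 1.5-fold and 99 by 2-fold, far fewer than were called in the data. The shares therefore do not give the recovery for the 10 genes, most of which changed less. TPM was computed from counts and exon length. No pair of libraries within a group was alike within counting noise (1.53 to 2.95 chi-square units per degree of freedom), so none was treated as deposited again. This does not show that they are independent cultures. Depth sets counting error only.

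The members and lists were chosen with earlier results of these data known. Named genes were the 10 members, Med4, up to 3 per list and direction with the smallest averaged adjusted p among genes called alike with both hairpins and their average, and the 2 nearest profiles of each member called with both hairpins. A gene that this rule names is not reported here. Families were added outside this rule. Alternatives were DESeq2 1.42.0, limma-voom (3.58.1), other scalings, filters and thresholds, a replicate block, separate fits and leaving out each library.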

Additional observations from a re-analysis of the deposited data

Results flagged for a closer look

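For Zyx and Src the effects of the hairpins differed from each other in a direct test. Zyx stood at 431 ± 15 CPM with shMed4 #4 and 297 ± 5.1 CPM with shMed4 #1 (SD, n = 3 each), a log2 difference of 0.53 with all 3 shMed4 #4 libraries higher (edgeR adjusted p = 2.4e-10). Src stood at 148 ± 5.0 CPM with shMed4 #4 and 122 ± 3.1 CPM with shMed4 #1, a log2 difference of 0.28 with all 3 shMed4 #4 libraries higher (edgeR adjusted p = 8.49e-05). Med4 itself was higher with shMed4 #4 than with shMed4 #1, at 7.21 ± 0.98 and 4.53 ± 0.39 CPM (log2 difference 0.67, edgeR adjusted p = 0.00401), and the part of this difference in the others was not tested.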

How the results depend on the processing

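Of 720 values of the 10 genes under the alternatives, 664 kept their direction and side of the threshold, 33 no longer passed and 12 newly passed. The other 11 changed sign near 0 and passed under no setting. With upper-quartile factors Ilk became -0.00917 for shMed4 #1 against NTC. Between the hairpins Parva, at -0.00156, became 0.00284 with the DESeq2 test, 0.00283 with DESeq2 size factors and 0.00847 with no low-count filter. Leaving out 1 library at a time, Ilk ranged from -0.00054 to 0.0418 and Src from -0.0352 to 0.000218 for shMed4 #1 against NTC, and between the hairpins Vcl ranged from -0.039 to 0.0252 and Parva from -0.00174 to 0.0148. Pxn, Zyx, Ptk2 and Actn4 changed side in 0 of 72 values each, Vcl in 16, Parva in 11, Tln1 in 8, Src in 5, Ilk in 4 and Actn1 in 1. For the average, members called higher were 5 in place of 8 with upper-quartile factors, with both hairpins pooled as 1 group and at an adjusted p under 0.01, and 1 was called lower with upper-quartile factors. These factors moved the median of all genes to -0.058 with shMed4 #4 and -0.038 with shMed4 #1. For the average they gave 3355 genes called higher and 4353 lower, in place of 3848 and 3792. At an adjusted p under 0.01, 2573 genes differed between the hairpins (1284 higher and 1289 lower) in place of 4017 (2029 and 1988), by construction of the threshold. Leaving out 1 library at a time gave 6 to 9 members higher with shMed4 #4, 4 to 6 with shMed4 #1, 5 to 8 for the average and 2 to 3 between the hairpins, with 0 lower in each. The same gave 7203 to 8183 genes called with shMed4 #4, 5159 to 6145 with shMed4 #1, 6719 to 7803 for the average and 3262 to 4129 between the hairpins (1659 to 2097 higher and 1603 to 2032 lower).

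Replicate numbers are shared between groups, but the labels do not tie them to a common source. Correlations of same-numbered libraries' deviations ran from -0.0586 to 0.0352, so the numbers were not taken as pairs. With a replicate block the members called higher stayed at 7 with shMed4 #4, 6 with shMed4 #1, 8 for the average and 2 between the hairpins, and genes called were 7807, 5828, 7537 and 3859.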
